A study of Mus musculus with 8 samples.

Results

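The genes described here are 10 that mark Sertoli cells, *Sox9*, *Wt1*, *Gata4*, *Amh*, *Fshr*, *Dhh*, *Clu*, *Ctsl*, *Cst9* and *Aard*, taken by symbol from the 40840 genes counted in RNAseq of whole mouse testes. All 10 were listed in every count table, and all 10 passed the filter on low counts that left 19104 genes to test. The libraries came from 4 wild type and 4 *Tra2b-cPEko* mice, all collected at 12 days after birth (P12) and all on a C57BL/6J background. The allele that both groups carry is a *Tra2b* gene whose poison exon, an exon whose inclusion stops the mRNA from making full-length protein, lies between LoxP sites. By the study's account, the mice called wild type were *Tra2bPE* fl/+, with no Cre named. The *Tra2b-cPEko* mice were *Tra2b* fl/- with *Vasa-Cre*, so that 1 allele lacked the exon in every cell and the other lost it in germ cells, where *Vasa-Cre* is active from embryonic life onward. Sertoli cells of *Tra2b-cPEko* mice therefore keep the exon on 1 allele and are not cells without a change, and a difference in them may reflect that allele or the germ cells beside them, which cannot be told apart here. The libraries hold RNA of the whole organ, and a lower value in them can come from fewer cells of a type or from less RNA per cell, which cannot be told apart. Between 36757386 and 59101569 reads were counted on genes in each library.

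Sertoli cells are the somatic cells of the seminiferous tubule, which enclose and feed the germ cells. The transcription factors SOX9, WT1 and GATA4 set up and hold their identity, and the cells release anti-Müllerian hormone (AMH) and the ligand desert hedgehog, answer follicle-stimulating hormone (FSH) through its receptor, and secrete proteins such as clusterin, cathepsin L and cystatins into the tubule. In young mice they stop dividing and mature in the same weeks in which the first germ cells enter meiosis, and AMH declines as they mature.

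The labels were checked on *Tra2b* and on its paralogue *Tra2a*. *Tra2b* was at a mean of 164 ± 8.93 CPM (normalised read count scaled to the library size; SD, n = 4) in the wild type group against 198 ± 8.49 CPM in the *Tra2b-cPEko* group, and the groups did not overlap (log2 fold change 0.27, adjusted p = 0.0552 in edgeR's quasi-likelihood test and 0.000195 in DESeq2). *Tra2a* was at 129 ± 15.3 CPM in the wild type group and 69.5 ± 3.36 CPM in the *Tra2b-cPEko* group (SD, n = 4 each) and was lower in *Tra2b-cPEko* (log2 fold change -0.89, adjusted p = 0.00231). Counts per gene do not show whether the poison exon itself was present.

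The library of *Tra2b-cPEko* mouse C stood apart from the rest. Its 6 epididymal marker genes summed to 6455 reads, against between 2 and 33 in each of the other 7 libraries. Nearly all of the 6455 reads were of *Crisp1*, *Adam7* (1098 reads) and *Lcn5* (333 reads), while *Lcn8*, *Lcn9* and *Rnase10* had 7, 1 and 2 reads there. *Crisp1*, a secreted protein of the epididymal epithelium, had 5014 reads in mouse C, 17 and 3 in *Tra2b-cPEko* mice A and D, and 0 in *Tra2b-cPEko* mouse B and in all 4 wild type mice. *Krt18*, a keratin of simple epithelia, was at 9.75 CPM there and between 0.271 and 0.762 CPM in the other 7. Results for the 10 Sertoli genes are therefore given with and without mouse C, and the part of epididymal RNA in them was otherwise not tested. Wild type mice A and B had more RNA of pachytene spermatocyte markers than wild type mice C and D, with 6 marker genes summing to 385 and 424 CPM against 181 and 229 CPM, and between 207 and 280 CPM in the *Tra2b-cPEko* mice. Markers of early (leptotene and zygotene) spermatocytes also summed higher in wild type A and B, to 1042 and 915 CPM against 754 and 774 CPM. In *Tra2b-cPEko* mice these summed to between 775 and 877 CPM. The markers of all germ cells, given below, divided the wild type mice likewise.

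The 10 genes differed widely in level per length. Divided by the exon length of each gene in GENCODE, the level in wild type testes was highest for *Aard*, at 656 ± 16.6 CPM per kb of exon (SD, n = 4), and lowest for *Fshr*, at 8.73 ± 0.837 CPM per kb. *Clu*, at 647 ± 29.4 CPM per kb, did not differ from *Aard* by more than the spread between mice, and over its canonical transcript alone, which is shorter than all its exons together, it was at 2006 CPM per kb and the highest of the 10. *Cst9* (367 ± 39.1), *Ctsl* (192 ± 11.9) and *Amh* (113 ± 10.9 CPM per kb) followed, each separated from its neighbours. *Wt1* (48.6 ± 2.43), *Dhh* (44.3 ± 2.27) and *Sox9* (39.8 ± 4.203 CPM per kb) lay close together, and *Gata4*, at 33.5 ± 2.26 CPM per kb, just below them. The order in *Tra2b-cPEko* testes differed only at the top, where *Clu* (674 ± 39.99 CPM per kb) came before *Aard* (609 ± 43.3 CPM per kb), a difference larger than either SD. Over canonical transcripts, *Wt1* was at 93.7 CPM per kb in wild type, and *Gata4*, at 44.8, lay above *Sox9*, at 39.8 CPM per kb, so that the order of the lower genes depended on the length used. No defining gene of the cell type was absent.

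**Figure D1:**
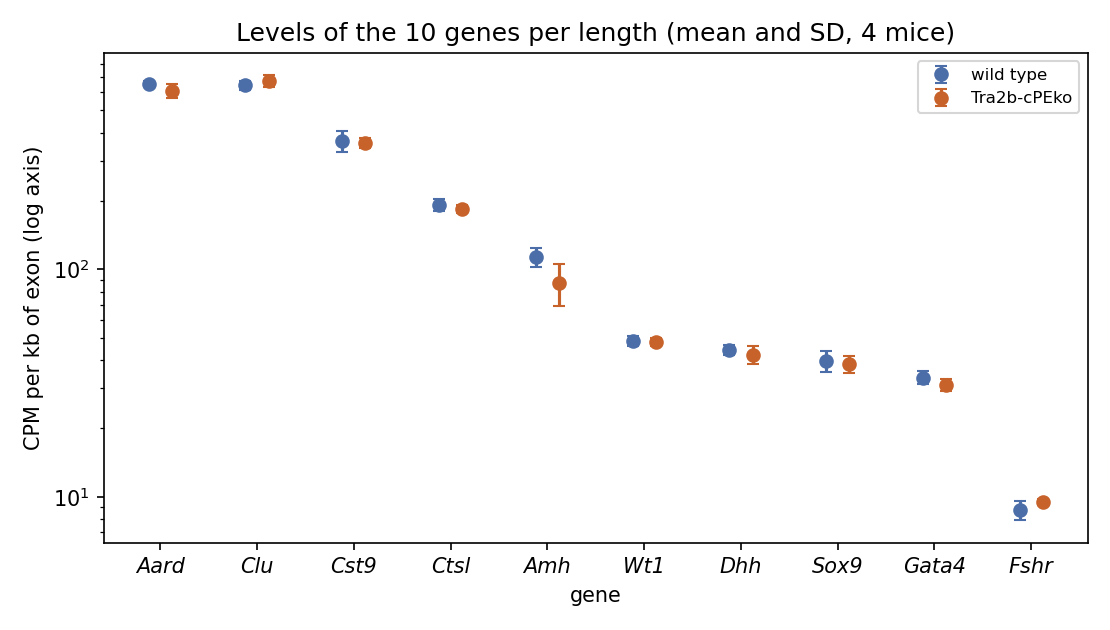
Level of each of the 10 Sertoli genes in wild type (blue) and *Tra2b-cPEko* (orange) testes, in CPM per kb of exon on a log axis. Points are means and bars SDs over 4 mice. The order runs from *Aard*, at 656 CPM per kb in wild type, to *Fshr*, at 8.73 CPM per kb, and the points of both genotypes lie close together for each gene.

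None of the 10 genes was called in the comparison of genotypes. The adjusted p of edgeR's quasi-likelihood test was under 0.05 for 0 of 10, against 0.157% of all genes tested (30 of 19104), and DESeq2, which called 2.79% of its genes, and limma-voom also called 0. The unadjusted edgeR p was under 0.05 for 1 of 10, *Amh*, where 15.3% of all genes passed. Mice of different genotype did not overlap in 1 of 10, *Aard*, where 8.54% of all genes did so. The fold change was below 1 in 8 of the 10 and above it in *Fshr* and *Clu*, with a median log2 fold change of -0.05, while 50.3% of all genes tested were lower and their median was -0.00. Without mouse C, 6 of 10 were lower, beside 51.2% of all genes, and without wild type D also 6 of 10, beside 50.1%, since *Sox9* and *Wt1* turned in both. The 10 genes together took 7331 ± 184 CPM in the wild type group and 7290 ± 339 CPM in the *Tra2b-cPEko* group (SD, n = 4 each). A p that misses the threshold does not show that levels were the same, so the 95% intervals bound what these mice allow. Over the 10 genes, these ran from 0.597-fold, for the lower end of *Amh*, to 1.21-fold, for the upper end of *Fshr*, with the narrowest interval in *Wt1*, at 0.10 on the log2 scale either way. The spread between mice was small, with a median SD of 6.48% of the mean among wild type and 6.10% among *Tra2b-cPEko* mice, against 8.77% and 7.01% over all genes tested. The latter include genes with far fewer reads, and genes of matched level were not compared.

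**Figure D2:**
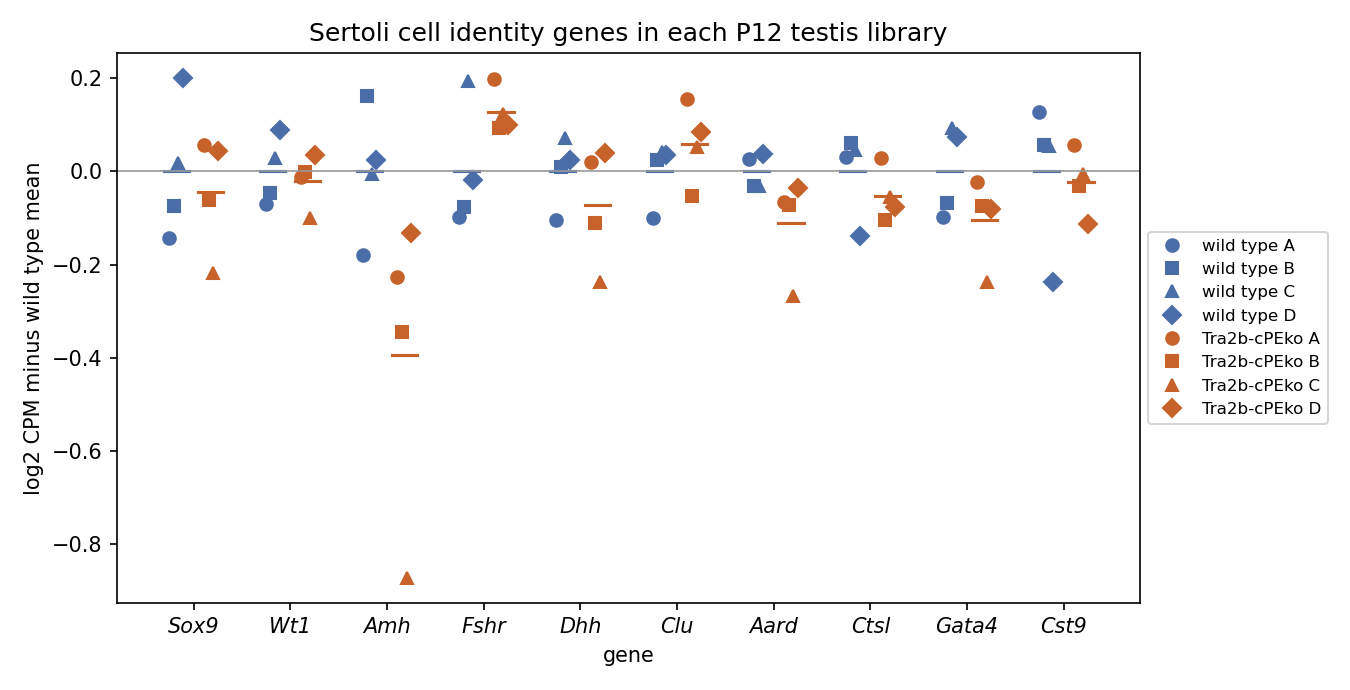
Log2 CPM of each gene in each mouse, minus the wild type mean of that gene. Wild type mice are blue, *Tra2b-cPEko* mice orange, the marker gives the mouse (A circle, B square, C triangle, D diamond), and short lines are group means. *Tra2b-cPEko* mouse C is the lowest mouse in 6 genes and lies far below the rest in *Amh*.

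The genotypes overlapped in each of the 3 transcription factors. *Sox9* (chromosome 11, 112673009 to 112678586 on GRCm39, 3 exons), which directs supporting cells of the early gonad to become Sertoli cells, was at 150, 157, 167 and 190 CPM in wild type mice A to D. In *Tra2b-cPEko* mice A to D it was at 172, 159, 142 and 170 CPM. The highest value was in wild type D and the lowest in *Tra2b-cPEko* C, with the other mice mixed between them. Between genotypes the log2 fold change was -0.05 (95% interval -0.22 to 0.13, adjusted p = 0.822), and without mouse C it was 0.01. *Wt1* (chromosome 2, 104956625 to 105003961, 10 exons), a zinc finger factor that Sertoli cells need to keep their identity, was at 298, 303, 319 and 332 CPM in wild type mice A to D. In *Tra2b-cPEko* mice A to D it was at 310, 312, 292 and 320 CPM, all but mouse C within the wild type range. Its log2 fold change of -0.02 (-0.12 to 0.08, adjusted p = 0.871) was the smallest of the 10, and without mouse C it was 0.00. The antisense RNA *Wt1os* overlaps *Wt1* on the other strand, but had only 402 to 575 reads per library where *Wt1* had at least 11463.

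*Gata4* (chromosome 14, 63436362 to 63509141, 7 exons), a zinc finger factor of the gonadal somatic cells that drives *Amh* among other genes, was at 178, 181, 203 and 200 CPM in wild type mice A to D. In *Tra2b-cPEko* mice A to D it was at 187, 181, 161 and 180 CPM. Wild type C and D were the highest and *Tra2b-cPEko* C the lowest, and the other 5 mice overlapped. Its log2 fold change was -0.10 (-0.23 to 0.02, adjusted p = 0.410), and -0.06 without mouse C.

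*Amh* had the largest fold change of the 10, and its groups overlapped. *Amh* (chromosome 10, 80641077 to 80643482, 5 exons) encodes anti-Müllerian hormone, which makes the Müllerian ducts of male embryos regress and stays high in immature Sertoli cells. It was at 167, 211, 188 and 192 CPM in wild type mice A to D. In *Tra2b-cPEko* mice A to D it was at 161, 149, 103 and 172 CPM. Mouse C was far below all others, mice A and B lay below the lowest wild type mouse, A, and mouse D lay above it. The log2 fold change was -0.37 (SE 0.16, 95% interval -0.74 to -0.00), with an unadjusted p of 0.0491 and an adjusted p of 0.325. DESeq2 and limma-voom gave adjusted p-values of 0.220 and 0.223, and the two-sided exact permutation test over 70 arrangements gave p = 0.0571. Without mouse C the log2 fold change was -0.24 (-0.40 to -0.07), with 3 mice at 160 ± 11.5 CPM (SD), an unadjusted p of 0.00828 and an adjusted p of 0.322. The fold change was thus smaller and the interval narrower without mouse C, and the gene was called in neither fit.

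*Fshr* was among the 2 genes with a fold change above 1. *Fshr* (chromosome 17, 89292380 to 89508139, 10 exons) encodes the receptor through which FSH makes Sertoli cells divide before puberty and supports germ cells later. It was at 21.8, 22.1, 26.7 and 23.0 CPM in wild type mice A to D. In *Tra2b-cPEko* mice A to D it was at 26.7, 24.9, 25.4 and 25.0 CPM. All 4 *Tra2b-cPEko* mice lay above wild type A, B and D, while wild type C was level with the highest of them. This gave a log2 fold change of 0.12 (-0.03 to 0.27, adjusted p = 0.414), the same to 2 decimals without mouse C, and 0.19 without wild type C (adjusted p = 0.109).

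*Dhh* (chromosome 15, 98789033 to 98796439, 3 exons) encodes desert hedgehog, which Sertoli cells send to Leydig and peritubular cells. It was at 182, 197, 205 and 199 CPM in wild type mice A to D. In *Tra2b-cPEko* mice A to D it was at 198, 181, 166 and 201 CPM. *Tra2b-cPEko* C and B were lowest and wild type C highest, and the groups overlapped. Its log2 fold change was -0.07 (-0.20 to 0.06, adjusted p = 0.621), and -0.02 without mouse C.

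*Clu* and *Ctsl* had the highest CPM of the 10. *Clu* (chromosome 14, 66190200 to 66218999, 9 exons) encodes clusterin, a secreted chaperone. It was at 3396, 3703, 3744 and 3728 CPM in wild type mice A to D. In *Tra2b-cPEko* mice A to D it was at 4049, 3507, 3773 and 3860 CPM. Of these, 3 lay above all wild type mice and mouse B below 3 of them, and the log2 fold change was 0.06 (-0.06 to 0.18, adjusted p = 0.626) with mouse C and without it. The gene *Scara3* overlaps *Clu* on the other strand, with 1511 to 3065 reads per library against at least 128764 for *Clu*.

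*Ctsl* (chromosome 13, 64507151 to 64518704, 8 exons), the lysosomal protease cathepsin L that Sertoli cells also secrete, was at 1305, 1333, 1320 and 1162 CPM in wild type mice A to D. In *Tra2b-cPEko* mice A to D it was at 1304, 1188, 1230 and 1212 CPM. Wild type D was the lowest of all 8 mice and the other 3 wild type mice the highest. The log2 fold change was -0.05 (-0.17 to 0.06, adjusted p = 0.660), the same without mouse C and -0.10 without wild type D.

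*Cst9* (chromosome 2, 148677039 to 148680659, 3 exons), or testatin, a secreted relative of the cystatin protease inhibitors, was at 423, 402, 402 and 329 CPM in wild type mice A to D. In *Tra2b-cPEko* mice A to D it was at 403, 379, 386 and 358 CPM. Wild type mice held both the highest and the lowest value, with the 4 *Tra2b-cPEko* mice between them. For *Cst9* the log2 fold change was -0.03 (-0.18 to 0.13, adjusted p = 0.884), and -0.04 without mouse C.

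*Aard* (chromosome 15, 51903503 to 51909204, 2 exons), which encodes a small protein rich in alanine and arginine, was the gene of the 10 whose groups did not overlap. It was at 958, 920, 921 and 965 CPM in wild type mice A to D. In *Tra2b-cPEko* mice A to D it was at 899, 895, 781 and 918 CPM. All 4 were below the lowest wild type mouse, but mouse D by less than 3 CPM. The log2 fold change was -0.11 (-0.22 to 0.01, adjusted p = 0.352), and the exact permutation test gave p = 0.0286, the smallest that 70 arrangements allow. Without mouse C, which was well below the others, it was -0.06 (adjusted p = 0.677), still without overlap.

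**Figure D3:**
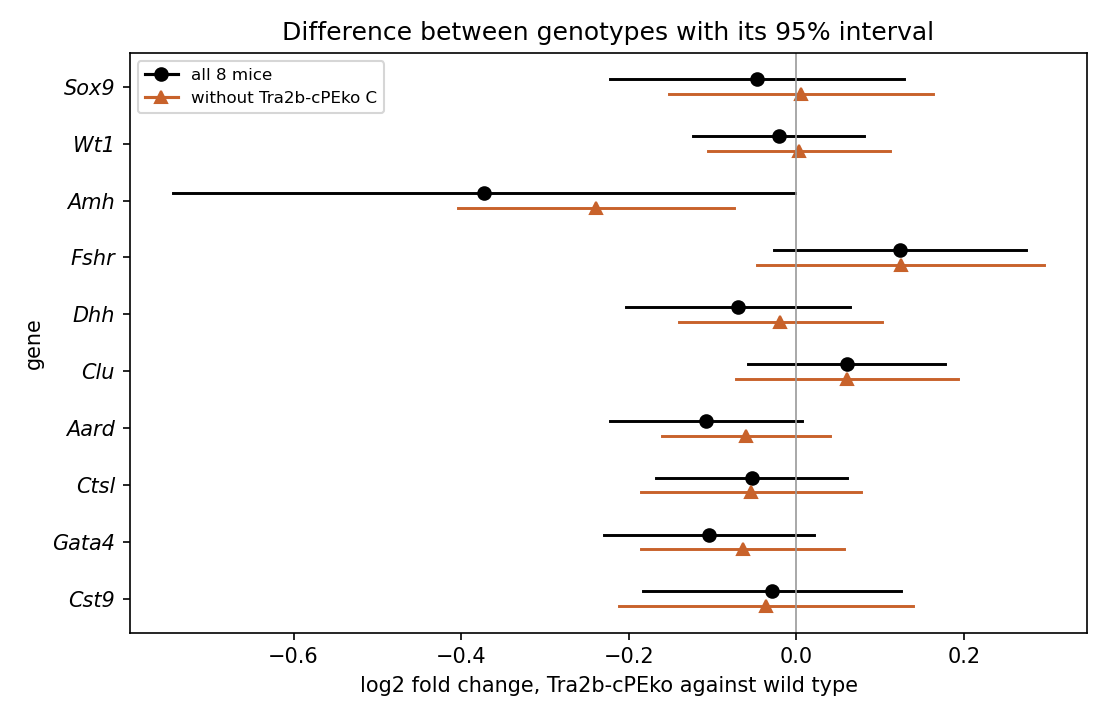
Log2 fold change of each gene between *Tra2b-cPEko* and wild type testes with its 95% interval from edgeR, over all 8 mice (black circles) and without *Tra2b-cPEko* mouse C (orange triangles). *Amh* is farthest from 0, at -0.37 and -0.24. The other 9 genes lie between -0.11 and 0.12 in both fits, with intervals that include 0.

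Upstream sequence was at hand for 4 of the 10 genes, *Cst9*, *Ctsl*, *Dhh* and *Fshr*, from RefSeq on GRCm38.p6. It was searched on both strands in the 250 bases before the start for the core bound by GATA factors such as the product of *Gata4*, which was spelled AGATAA or, with another first letter, TGATAA, and in either case also with G in place of the last A, and for CACGTG, an E-box. A GATA spelling was in 26.5% and CACGTG in 6.02% of 32851 promoters of that length. *Cst9*, a secreted product, and *Fshr*, the receptor among the 4, are shown because each holds a match, in capitals, close to its start. *Cst9* (chr2:148834897-148835146, plus strand) has TGATAA starting 57 bases before the start. *Fshr* (chr17:89200676-89200925, minus strand) has CACGTG starting 61 bases before it and no GATA spelling. *Ctsl* has CACGTG at 236 bases, and *Dhh* has neither in this window.
Cst9: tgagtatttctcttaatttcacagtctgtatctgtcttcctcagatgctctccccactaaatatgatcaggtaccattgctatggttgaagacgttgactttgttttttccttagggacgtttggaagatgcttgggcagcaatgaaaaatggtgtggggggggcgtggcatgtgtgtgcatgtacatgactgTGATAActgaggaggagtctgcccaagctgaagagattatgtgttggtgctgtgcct
Fshr: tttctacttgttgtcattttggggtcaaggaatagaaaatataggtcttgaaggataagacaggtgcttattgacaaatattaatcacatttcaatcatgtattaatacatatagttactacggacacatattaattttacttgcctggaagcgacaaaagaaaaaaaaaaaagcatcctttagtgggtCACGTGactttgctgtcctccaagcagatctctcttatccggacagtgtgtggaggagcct

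Across mice, the genes did not all vary together. *Tra2b-cPEko* mouse C was the lowest of the 8 in 6 genes, *Sox9*, *Wt1*, *Gata4*, *Amh*, *Dhh* and *Aard*, and in none of the 4 others, *Fshr*, *Clu*, *Ctsl* and *Cst9*. In that mouse the median over the 10 genes was 0.16 below the wild type mean on the log2 CPM scale, and in the other 7 mice it was between -0.10 and 0.04. The summed level of the 10, which *Clu* dominates, was 7059 CPM in mouse C, within the range of 6975 to 7710 CPM over the other 7. The library with the lowest values of these 6 genes was thus the one that held the epididymal RNA. With mouse C left out, the median log2 fold change of the 10 was -0.03.

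The genes whose level over the 8 mice was most like the mean profile of the 10 were *Osr1*, *Rimbp2*, *Grtp1*, *Pdlim4* and *9430085M18Rik*. Likeness was the mean absolute difference of log2 CPM standardised over the 8 mice, and was between 0.153 and 0.282 SD among these 5, while the median over the 15467 genes compared, whose mean reached 1 CPM, was 1.08 SD. Each of the 5 was highest in wild type C and lowest in *Tra2b-cPEko* C, as was the mean profile that they were chosen to resemble. Of the 10 genes themselves, each of which is part of the mean profile, *Dhh* was closest to it, at 0.194 SD, followed by *Gata4* at 0.389 SD and *Amh* at 0.496 SD. *Cst9* was the farthest, at 1.14 SD, above the median of other genes.

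The partners of the 3 signalling genes were examined next, as lists named from textbook roles. Of 8 receptors and Smads of AMH signalling, edgeR called 0, the unadjusted p was under 0.05 for 0 and DESeq2 called 0. Over all genes these shares were 0.157%, 15.3% and 2.79%. The median log2 fold change of the 8 was -0.03, the same as without mouse C. *Amhr2*, the receptor that binds AMH and the most abundant of them, was at a mean of 432 CPM over all mice. The 3 with the smallest p were *Acvr1* (20.9 ± 2.15 CPM in wild type, 24.8 ± 4.68 CPM in *Tra2b-cPEko*, log2 fold change 0.24, and 0.12 without mouse C), *Smad5* (116 ± 5.85 and 110 ± 4.802 CPM) and *Smad4* (136 ± 5.52 and 130 ± 2.53 CPM), with adjusted p between 0.384 and 0.510.

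Of 13 genes that pass on the FSH signal, such as the G protein *Gnas*, adenylyl cyclases and protein kinase A, edgeR called 0, and the unadjusted p was under 0.05 for 3 of 13, all higher in *Tra2b-cPEko*, beside 15.3% of all genes. *Pde4d* and *Pde4b* break down cyclic AMP, the second messenger of the FSH receptor. *Pde4d* was at 13.8 ± 1.44 CPM in the wild type group and 18.1 ± 1.97 CPM in the *Tra2b-cPEko* group (SD, n = 4; log2 fold change 0.38, adjusted p = 0.112 in edgeR and 0.0169 in DESeq2). *Pde4b* was at 26.6 ± 5.27 and 36.8 ± 1.71 CPM (log2 fold change 0.47, adjusted p = 0.135 in edgeR and 0.00785 in DESeq2). Every *Tra2b-cPEko* mouse was above every wild type mouse in both genes, and these were the 2 of 13 that did not overlap, beside 8.54% of all genes, and the 2 of 13 that DESeq2 called, beside 2.79%. *Arrb1*, an arrestin that uncouples such receptors, was at 40.8 ± 3.48 and 46.4 ± 4.98 CPM (log2 fold change 0.18, adjusted p = 0.301). These genes are expressed in many cell types, and the cells behind the values were not identified.

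Of 13 receptors, co-receptors and effectors of hedgehog signalling, edgeR and DESeq2 called 0, and the unadjusted edgeR p was under 0.05 for 2 of 13, both lower in *Tra2b-cPEko*, a share close to the 15.3% of all genes. *Hhip*, a decoy that binds hedgehog ligands, was at 24.2 ± 4.10 and 18.6 ± 2.58 CPM (log2 fold change -0.38, adjusted p = 0.221). The co-receptor *Boc* was at 43.2 ± 3.62 and 46.1 ± 1.83 CPM (adjusted p = 0.491). The list's median log2 fold change was -0.08, with 10 of 13 lower, and -0.06 without mouse C.

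Of 16 other cathepsins and cystatins tested, of 17 listed, edgeR called 0 and the unadjusted p was under 0.05 for 3 of 16, all higher in *Tra2b-cPEko*, a share near the 15.3% of all genes. These were *Ctss*, *Ctsc* and *Ctsk*, proteases that are better known from macrophages, other leukocytes and bone-resorbing cells than from Sertoli cells. *Ctss* was at 8.28 ± 0.516 CPM in the wild type group and 10.9 ± 0.926 CPM in the *Tra2b-cPEko* group, without overlap (log2 fold change 0.39, adjusted p = 0.0895 in edgeR and 0.00567 in DESeq2). It was the 1 gene of 16 without overlap, beside 8.54% of all genes, and the 1 of 16 that DESeq2 called, beside 2.79%. *Ctsc* had a log2 fold change of 0.28 (adjusted p = 0.250) and *Ctsk* of 0.23 (adjusted p = 0.271). Beside them, the 8 macrophage markers were all higher, summing to 138 ± 14.1 CPM in the wild type group and 168 ± 15.1 CPM in the *Tra2b-cPEko* group, with *Mrc1* the most abundant, 4 at an unadjusted p under 0.05, 0 called by edgeR and 1 of 8 by DESeq2. This was *Csf1r*, the receptor of a macrophage growth factor (log2 fold change 0.29, and 0.24 without mouse C, adjusted p = 0.136 in edgeR and 0.0400 in DESeq2). The part of macrophage RNA in the cathepsin values was not tested.

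**Figure D4:**
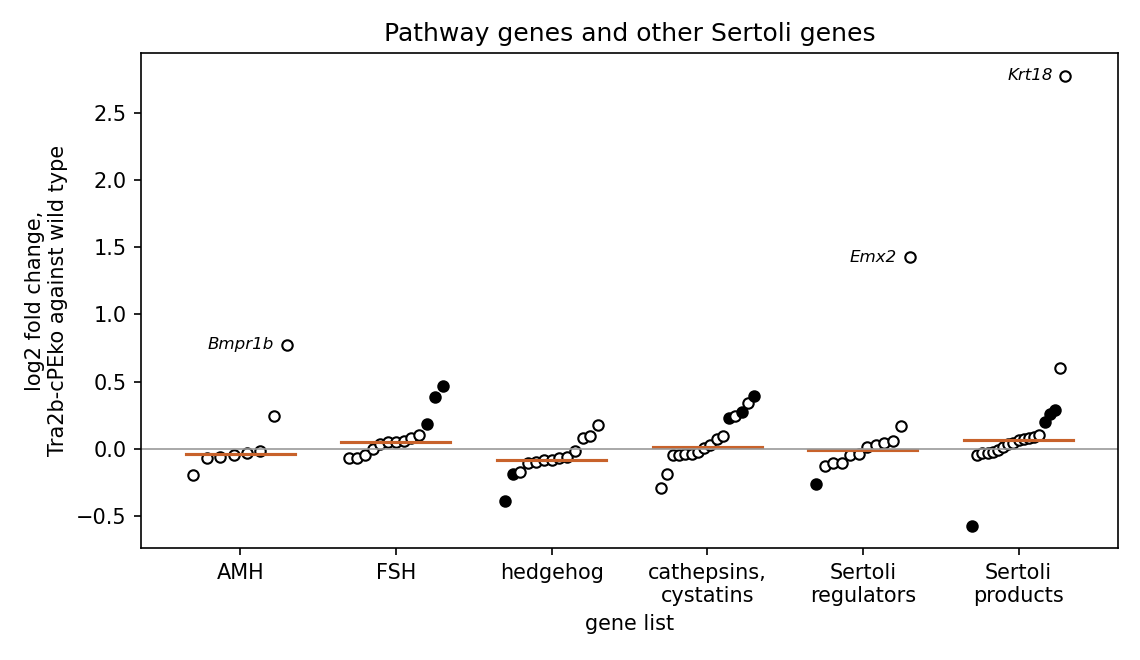
Log2 fold change between *Tra2b-cPEko* and wild type testes of each gene in 6 lists of pathway and Sertoli genes, in order within its list. Filled points have an unadjusted edgeR p under 0.05, none has an adjusted p under 0.05, and orange lines are list medians, which all lie between -0.08 and 0.07. *Bmpr1b*, *Emx2* and *Krt18* stand out upward, and without *Tra2b-cPEko* mouse C their log2 fold changes were 0.03, -0.06 and 0.67.

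Other genes of Sertoli cells were taken as 2 further lists. Of 12 further regulators, edgeR called 0, with a median log2 fold change of -0.01, and -0.03 without mouse C. The LIM homeobox gene *Lhx9* had an unadjusted p under 0.05 (14.4 ± 1.403 CPM in wild type, 12.0 ± 0.925 CPM in *Tra2b-cPEko*, log2 fold change -0.26, adjusted p = 0.198, and -0.22 without mouse C). It was followed by *Rhox8* (log2 fold change -0.11, adjusted p = 0.359, and -0.07 without mouse C). Of 19 further products, edgeR called 0, with a median log2 fold change of 0.07, and 0.06 without mouse C. DESeq2 called 2 of 19, beside 2.79% of all genes, and the same 2 did not overlap, a share near the 8.54% of all genes. *Shbg*, which encodes androgen binding protein, was at 192 ± 10.04 CPM in the wild type group and 221 ± 14.4 CPM in the *Tra2b-cPEko* group, without overlap (log2 fold change 0.20, and 0.22 without mouse C, adjusted p = 0.134 in edgeR and 0.0397 in DESeq2). *Hsd17b1*, a steroid dehydrogenase, was at 11.3 ± 0.904 and 7.65 ± 1.80 CPM, also without overlap (log2 fold change -0.57, and -0.41 without mouse C, adjusted p = 0.147 in edgeR and 0.0192 in DESeq2). *Espn*, which encodes an actin bundling protein of Sertoli cell junctions, was at 211 ± 26.2 and 259 ± 23.1 CPM (log2 fold change 0.29, adjusted p = 0.198, and 0.27 without mouse C).

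The 10 genes were then set against these other Sertoli products within each mouse, which takes out a difference in the share of Sertoli RNA if both sets share it. Relative to the mean log2 CPM of the 19 products, *Amh* was 0.52 lower in *Tra2b-cPEko* mice and *Dhh* 0.20 lower, each without overlap and with an exact permutation p of 0.0286, the smallest possible. The other 8 genes had p between 0.0571 and 1 in these 10 tests, which were not adjusted. The mean of the products was itself raised in mouse C, where *Krt18* and *Ptgds* (9.26 CPM, against 1.76 to 2.80 CPM in the other 7) were high. Against the median of the products, *Amh* was 0.43 lower (exact permutation p = 0.0286) and *Dhh* 0.11 lower (p = 0.0571). Against the mean of the 12 regulators, *Amh* was 0.42 lower (exact permutation p = 0.0571) and *Dhh* 0.10 lower (p = 0.514), both with overlap. The mean of the regulators was raised in mouse C as well, by 0.151 against at most 0.0592 in the other mice, with *Emx2* at 6.54 CPM there and at most 1.14 CPM elsewhere. When the library factors of the edgeR fit were set by the mean of the products, *Amh* was the 1 gene of the 10 that was called (log2 fold change -0.48, adjusted p = 0.00141), and the median of all genes moved to -0.13. With *Krt18* and *Ptgds* left out of those factors, the adjusted p of *Amh* was 0.259 (log2 fold change -0.41), and with mouse C left out it was 0.0936 (log2 fold change -0.31), so that the call was lost without mouse C and without these 2 genes.

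Lists of markers of other testicular cells were read beside the Sertoli genes. Leydig cell markers summed to between 370 and 452 CPM in wild type and between 423 and 639 CPM in *Tra2b-cPEko* mice, with 6 of 7 higher, 0 called by edgeR and 2 of 7 by DESeq2, beside 2.79% of all genes. These were *Hsd3b6*, a steroidogenic enzyme (log2 fold change 1.02, adjusted p = 0.183 in edgeR and 0.0308 in DESeq2), and *Lhcgr*, the receptor of luteinizing hormone (0.46, adjusted p = 0.131 in edgeR and 0.00851 in DESeq2). Markers of mesothelium and rete testis, all 6 of which were higher, summed to 13.4 ± 1.58 and 26.7 ± 15.9 CPM, with 49.9 CPM in mouse C. Without mouse C, *Cdh1* and *Pax8* turned to log2 fold changes of -0.03 and -0.08, while the list median was 0.95, beside 1.01 with all mice. Of these 6, the unadjusted edgeR p was under 0.05 for 4, beside 15.3% of all genes. EdgeR called 1 of the 6, *Lrrn4*, beside 0.157% of all genes (log2 fold change 0.83, adjusted p = 0.0424, and 0.74 and 0.108 without mouse C). DESeq2 called 2 of these 6, *Lrrn4* and *Upk3b*, a uroplakin of mesothelium (log2 fold change 2.03, and 1.77 without mouse C, adjusted p = 0.174 in edgeR and 0.0244 in DESeq2). Of 9 spermatogonial markers, edgeR and DESeq2 each called 1, beside 0.157% and 2.79% of all genes. The unadjusted edgeR p was under 0.05 for 1 of the 9, beside 15.3% of all genes. This was *Sohlh1*, a transcription factor of differentiating spermatogonia, which was lower by 0.34 on the log2 scale (adjusted p = 0.0341 in edgeR and 9.16e-06 in DESeq2). The edgeR call was lost without mouse C (log2 fold change -0.33, adjusted p = 0.108), and limma-voom did not make it (adjusted p = 0.0583). The edgeR calls of *Lrrn4* and *Sohlh1* were also both lost without wild type B, without *Tra2b-cPEko* A, without *Tra2b-cPEko* D and without robust estimation. The 4 markers of all germ cells were all lower, with a median log2 fold change of -0.19, and summed to 1667, 1614, 1292 and 1326 CPM in wild type mice A to D and to between 1309 and 1339 CPM in *Tra2b-cPEko* mice. Wild type A and B were the high mice, and without them the median was -0.02. Of the 4, the unadjusted edgeR p was under 0.05 for 2, beside 15.3% of all genes. EdgeR called 0 of them and DESeq2 called 1, beside 2.79% of all genes. This was *Mael*, which acts against transposons in germ cells (log2 fold change -0.22, and -0.12 without wild type A and B, adjusted p = 0.140 in edgeR and 0.0381 in DESeq2). No gene of the peritubular, stromal, endothelial, early spermatocyte and pachytene lists was called by edgeR or DESeq2. All 6 peritubular, 5 of 6 stromal and all 6 endothelial genes were higher, with median log2 fold changes of 0.12, 0.06 and 0.06. Of the spermatocyte genes, 5 of 7 early and 5 of 6 pachytene ones were lower, while 50.3% of all genes tested were lower. The part of these cells in the values of the Sertoli genes was not tested.

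**Figure D5:**
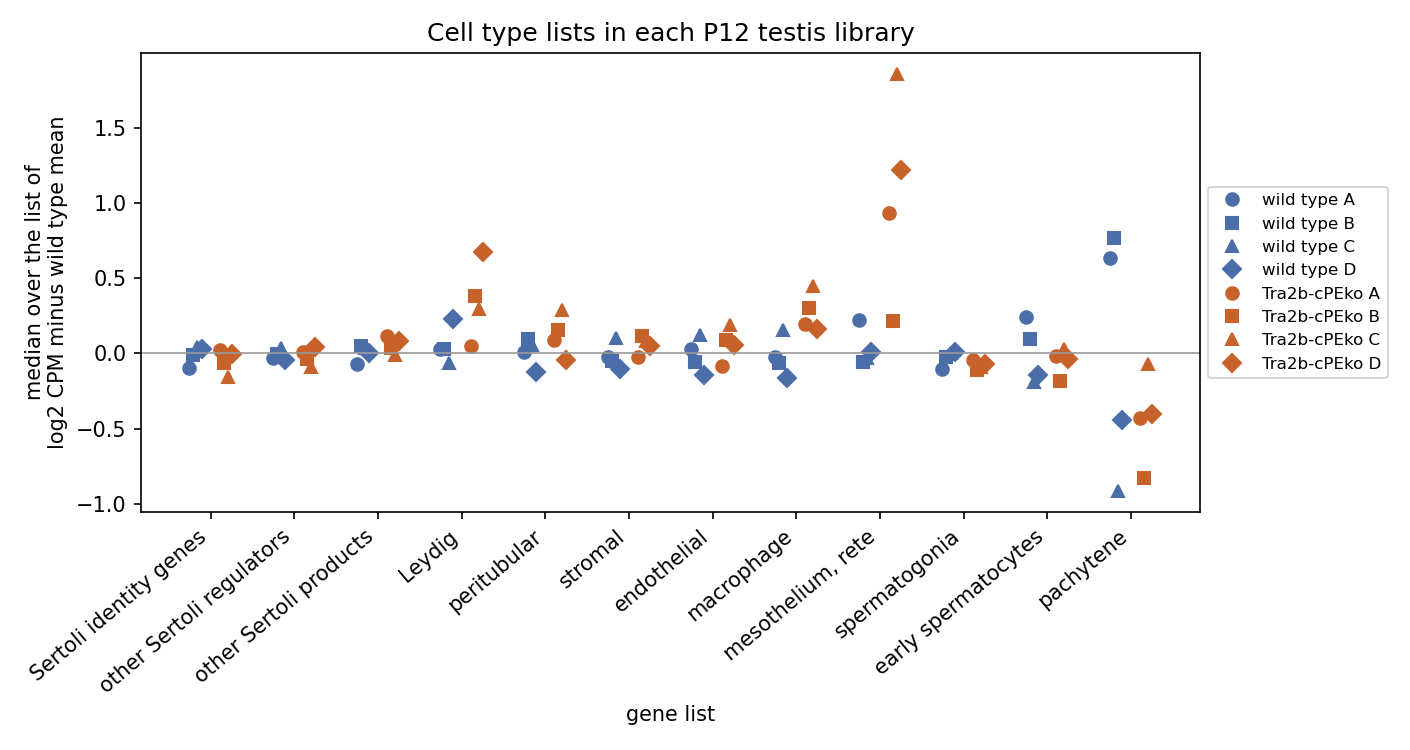
Median over each cell type list of log2 CPM minus the wild type mean, for each mouse (colours and markers as in the plot of the 10 genes by mouse). The 3 Sertoli lists lie close to 0 in all mice, while the list of mesothelium and rete testis rises to 1.86 in *Tra2b-cPEko* mouse C and the pachytene list divides wild type mice A and B from C and D.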

How the data were processed

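Whole-testis RNA of 8 P12 mice was made into stranded mRNA libraries and sequenced as paired ends. The authors deposited raw read counts per gene, 1 table per mouse. The processing notes name HISAT2 2.2.1, SAMtools 1.7.1, HTSeq 2.0.2 and deepTools 3.5.1 and the build GRCm39, and the tables end in 5 summary lines of the htseq-count form, whereas the study's methods name Salmon. No source used here says whether strand was used in counting, so reads of genes that overlap on opposite strands may be mixed, which concerns *Sox9*, *Wt1*, *Dhh*, *Clu*, *Ctsl* and *Gata4*, while *Dhh* (with *Rhebl1*), *Ctsl* (*Gm49230*) and *Gata4* (*Gm63205*) also overlap a gene on their own strand. The summary lines were left out of library sizes and tests; the reads in no feature were 12.45 to 12.77% in wild type and 13.2 to 13.55% in *Tra2b-cPEko* libraries, and reads on genes 67.56 to 69.03% and 66.42 to 67.26%. The labels name no batch or litter. A chi-square per degree of freedom of 6.24 to 19.1 between libraries of the same genotype showed no copy, and each was taken as 1 replicate.

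Genes were kept by filterByExpr of edgeR 4.0.16 (R 4.3.3), with a minimum count of 10 and a minimum total of 15. Genotype was the single term of a robust quasi-likelihood fit with TMM scaling, whose p-values were adjusted by Benjamini-Hochberg over 19104 genes and called under 0.05. Log2 CPM used a prior count of 2. Exact permutation tests were two-sided on log2 CPM. Alternatives were DESeq2 1.42.0 with default settings, limma-voom (limma 3.58.1), other factors and filters, a fit that was not robust, a replicate block by letter, each mouse left out, and library factors from other Sertoli products. The fit without wild type A and B, the median as reference, and the factors without *Krt18* and *Ptgds* or without *Tra2b-cPEko* C were chosen after seeing the data. The fits were tested on simulated counts, with a pass limit set only for planted changes larger than any of the 10 genes showed.

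The 10 genes and all lists were chosen with earlier results of these data known. Named were the 10 genes, called genes and the 3 smallest p in each of 4 pathway lists and 2 lists of other Sertoli genes, the 5 genes most like the 10, and *Tra2b* and *Tra2a*; *Amhr2*, *Krt18*, *Ptgds*, *Bmpr1b*, *Emx2*, *Crisp1* and the genes of other cell types were named after their values were seen. Results for 2 single genes that this rule names are not given. Positions and lengths come from GENCODE vM39 on GRCm39, where all 10 genes were found. Python 3.11.15 and matplotlib 3.10.9 were used for annotation and plots.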

Additional observations from a re-analysis of the deposited data

Results flagged for a closer look

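In groups of 4, the lowest or highest mouse was tested for its distance from the others with Dixon's ratio at its 95% critical value, over 60 groups of 30 genes, where chance gives about 3 flags. There were 4. *Clu* was at 3400 CPM in wild type A with the next mouse at 3700 CPM (ratio 0.882). *Ctsl* was at 1160 CPM in wild type D with the next at 1310 CPM (0.835). *Aard* was at 781 CPM in *Tra2b-cPEko* C with the next at 895 CPM (0.835). *Hsd17b1* was at 4.96 CPM in *Tra2b-cPEko* C with the next at 8.36 CPM (0.919), and without that mouse its log2 fold change was -0.41 (adjusted p = 0.181 in edgeR) in place of -0.57. *Amh* in *Tra2b-cPEko* C did not pass the limit.

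Signals outside the genes tested were found in 2 places. The 6 epididymal markers were *Lcn8*, *Lcn9*, *Adam7*, *Rnase10*, *Crisp1* and *Lcn5*, and they did not pass the filter on low counts. They summed to 6455 reads in *Tra2b-cPEko* C, nearly all of *Crisp1*, *Adam7* and *Lcn5*, and to 33 in the next highest library, *Tra2b-cPEko* A. Reads in no feature made up a mean of 13.4% of the reads in *Tra2b-cPEko* and 12.6% in wild type libraries, without overlap. The relation of either to the Sertoli genes was not tested beyond the fits without *Tra2b-cPEko* C.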

How the results depend on the processing

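None of the 10 Sertoli genes was called under DESeq2, limma-voom, the other factors from all genes, the other filters, no robust estimation, the block or any fit without a mouse. The exception was the scaling by other Sertoli products, which called 1, *Amh* (-0.48), and moved the median of the 10 to -0.17. Their median stayed between -0.08 and -0.03 with each mouse left out and was -0.09 without wild type A and B together, where *Sox9* moved to -0.15, *Gata4* to -0.18, *Dhh* to -0.11, *Wt1* to -0.08, *Fshr* to 0.04, *Clu* to 0.03 and *Ctsl* to -0.01. Directions that turned were those of *Sox9* (-0.095 to 0.021), *Wt1* (-0.045 to 0.0058) and *Cst9* (-0.10 to 0.013) over the fits without 1 mouse, *Cst9* without wild type A and B (0.064), and *Clu* with factors from the products (-0.065), with those factors and without *Tra2b-cPEko* C (-0.0080), and relative to the regulators (0.030) or to the median of the products (0.024) where it was -0.07 against their mean. The genes of the 10 whose groups did not overlap were 0 with upper-quartile factors and 1 to 2 with a mouse left out. No share over all genes is given for these fits, and fewer mice part more easily. These counts are therefore not set against the 8.54% of the main fit. Genes called among all tested, 30 in edgeR, were 507 with DESeq2, 58 with upper-quartile factors, 123 without a filter, 14 with a mean count of at least 50, 11 with limma-voom, 12 without robust estimation, 67 with the block, 1 without wild type A and B, and 3 (without *Tra2b-cPEko* D) to 84 (without wild type C) with a mouse left out. In the related lists of all kinds, where edgeR called 2, the numbers were 12, 1 (mean count), 0 (limma-voom), 0 (no robust estimation), 4 (block), 0 (without wild type A and B) and 0 to 4 (a mouse left out). The causes were not tested.

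Whether the letters A to D pair mice is not stated by the labels. Correlations of same-letter deviations from the group means were 0.03, -0.14, -0.04 and 0.12, and only mouse D correlated best with its own letter. These values do not settle whether mice were paired. With the letter as a replicate block, 67 genes and 0 of the 10 were called, and 4 genes of the related lists, against 30, 0 and 2 without it. With 4 mice per genotype, the 95% intervals were at least 0.10 (*Wt1*) and at most 0.37 (*Amh*) wide on either side on the log2 scale, before any adjustment for the number of genes tested.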
